A study of Homo sapiens with 22 samples.

Results

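PPP3CA, GUCY1A2, AFF3 and IQSEC2 are 4 long genes whose bodies were covered by peaks of RNA polymerase II phosphorylated on serine 5 (Pol2S5p) in control cells, while the other Pol2S5p libraries had only a few short peaks there. All peaks of 8 deposited lists that overlap fixed hg19 spans of these genes, each widened by 5 kb on both sides, are described. The spans are 324 kb for PPP3CA (chr4:101944587-102268628), 344 kb for GUCY1A2 (chr11:106544738-106889171), 595 kb for AFF3 (chr2:100163716-100759037) and 88.5 kb for IQSEC2 (chrX:53262058-53350522). In the Pol2S5p lists, 9 of 40626 peaks in H1-10 OE, 11 of 83067 in siE2F3, 12 of 83650 in siCtrl and 498 of 35493 in Ctrl lay in these spans. The 4 genes were chosen by the Pol2S5p length covered in Ctrl and in H1-10 OE, so that contrast is given as a description and supports nothing. The siE2F3 and siCtrl values of these genes were known at the choice too.

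Chromatin immunoprecipitation with sequencing was done in 22Rv1 cells, a line established from human prostate cancer. H1-10 OE cells overexpressed H1-10, a linker histone variant, and Ctrl cells were the control treatment; 3 targets (Pol2S5p, E2F3 and the histone mark H3K27me3) were mapped in both. A further Pol2S5p pair received an siRNA against E2F3 (siE2F3) or a control siRNA (siCtrl), and in both the peak names speak of H1-10 overexpression where the sample labels are silent on it. Of 22 samples, 8 have lists, with 1 library per group, and the other 14 were not analysed here. How H1-10 was overexpressed, and whether in 1 clone, is not given in the labels. Without replicates, no spread stands behind any difference given here. The lists hold called peaks and not read counts, and the depth of the libraries is unknown.

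RNA polymerase II takes up this phosphate on its C-terminal tail as it starts transcription, so Pol2S5p usually peaks at the starts of genes and thins out along the body as other phosphorylations take over. Long genes give this change room to be seen, since start, body and end lie far apart. E2F3 is a transcription factor of the cell cycle that binds near gene starts, H3K27me3 marks chromatin silenced by Polycomb, and linker histones bind the DNA between nucleosomes.

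The 4 genes have no shared pathway. PPP3CA encodes a catalytic subunit of calcineurin, the calcium-dependent phosphatase that acts on NFAT factors. GUCY1A2 encodes a subunit of soluble guanylate cyclase, the receptor for nitric oxide that makes cyclic GMP. AFF3 belongs to the AF4/FMR2 family of nuclear proteins linked to transcription elongation. IQSEC2 encodes an exchange factor for ARF GTPases that acts at excitatory synapses. All 4 lie on the minus strand, so each start is at the higher coordinate of its span and distances below run downstream from there.

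RefSeq promoter sequences on GRCh38, 250 bases before to 50 bases after a start, were found for 3 of the 4 members (GUCY1A2, AFF3 and IQSEC2). They are shown because AFF3 and IQSEC2 have a second start inside the gene, 37.0 and 39.8 kb downstream of the first, and Pol2S5p peaks lay near both distances. Each is written on the minus strand, 5′ to 3′, with CG pairs in capitals.
GUCY1A2 first start: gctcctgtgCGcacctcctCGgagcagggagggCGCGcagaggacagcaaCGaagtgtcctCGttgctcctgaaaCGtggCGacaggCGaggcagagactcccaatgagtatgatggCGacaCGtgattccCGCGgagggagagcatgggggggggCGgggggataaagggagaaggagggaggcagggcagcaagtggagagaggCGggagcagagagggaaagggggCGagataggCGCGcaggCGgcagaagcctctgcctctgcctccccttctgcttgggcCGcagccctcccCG
AFF3 first start: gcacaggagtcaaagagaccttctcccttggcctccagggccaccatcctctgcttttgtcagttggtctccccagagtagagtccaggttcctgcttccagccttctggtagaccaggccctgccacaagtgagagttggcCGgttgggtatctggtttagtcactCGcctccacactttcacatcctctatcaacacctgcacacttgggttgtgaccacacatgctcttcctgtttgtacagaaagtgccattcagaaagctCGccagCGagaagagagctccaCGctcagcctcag
AFF3 second start: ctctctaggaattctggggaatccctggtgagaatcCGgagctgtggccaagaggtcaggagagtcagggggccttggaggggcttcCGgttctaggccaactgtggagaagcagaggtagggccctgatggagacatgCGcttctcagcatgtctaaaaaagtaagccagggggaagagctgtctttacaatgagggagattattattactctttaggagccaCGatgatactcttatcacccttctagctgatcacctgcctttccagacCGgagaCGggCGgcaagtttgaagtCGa
IQSEC2 first start: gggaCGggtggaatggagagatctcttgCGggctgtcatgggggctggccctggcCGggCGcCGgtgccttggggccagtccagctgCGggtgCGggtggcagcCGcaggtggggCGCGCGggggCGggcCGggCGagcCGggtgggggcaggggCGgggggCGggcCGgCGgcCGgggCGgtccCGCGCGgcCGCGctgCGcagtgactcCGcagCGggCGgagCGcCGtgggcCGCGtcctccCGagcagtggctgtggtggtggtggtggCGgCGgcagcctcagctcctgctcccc
IQSEC2 second start: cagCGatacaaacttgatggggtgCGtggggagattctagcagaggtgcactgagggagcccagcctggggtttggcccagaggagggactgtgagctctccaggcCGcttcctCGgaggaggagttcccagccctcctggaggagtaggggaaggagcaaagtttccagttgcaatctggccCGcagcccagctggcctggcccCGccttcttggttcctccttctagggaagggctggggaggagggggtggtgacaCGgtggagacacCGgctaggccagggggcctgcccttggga
The first start of IQSEC2 held 37 CG pairs and its second start 8. That of GUCY1A2 held 21, and the first and second starts of AFF3 held 5 and 8, against a median of 14 over 35116 RefSeq promoters of the same length. The windows were searched for the E2F motif, and none of the 5 held it in any of the forms TTTCGCGC, TTTGGCGC, TTTCCCGC or TTTGCCGC on either strand, which 3.31% of all promoters held. None held TATAAA, which 11.5% held. No match says only that these letters are not in these windows.

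**Figure D1:**
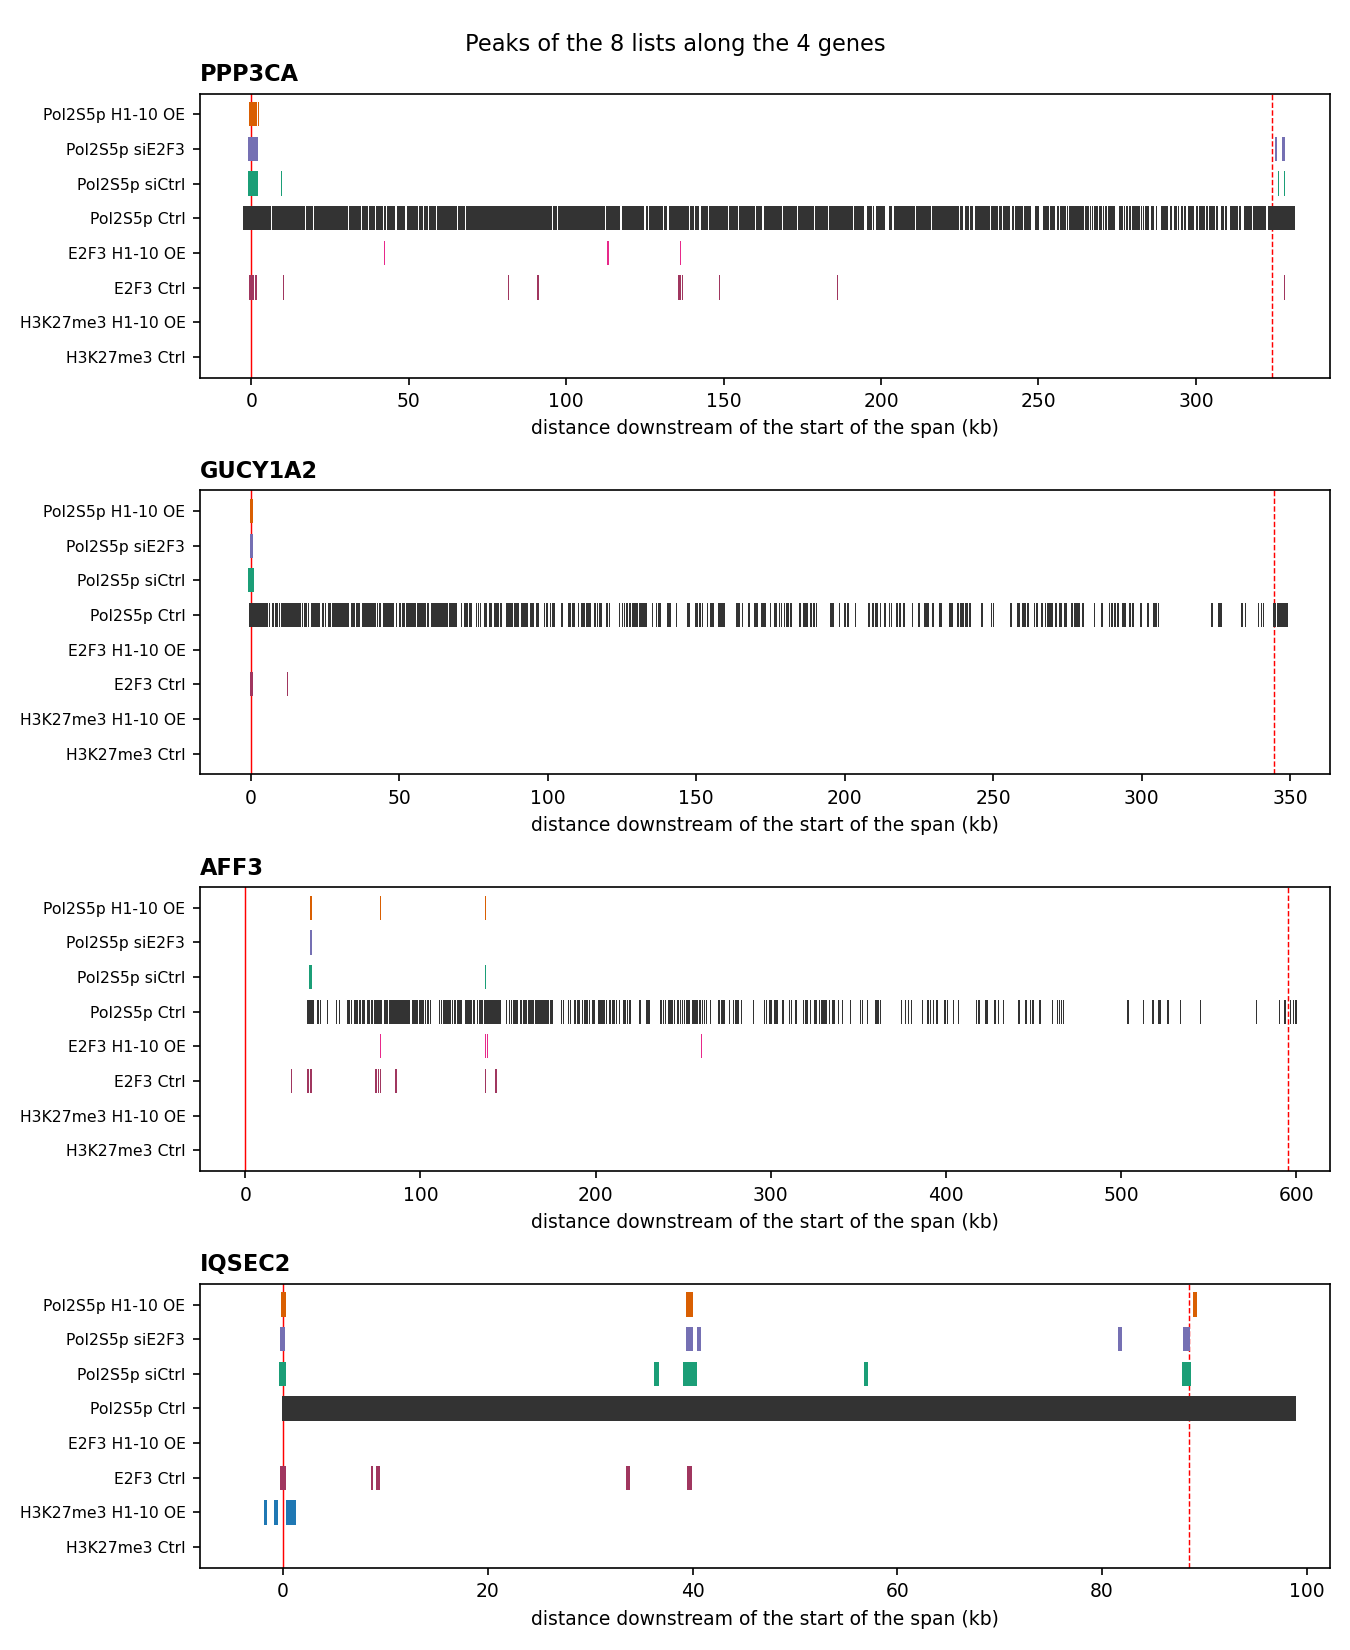
Peaks of the 8 lists (rows) along the 4 genes, by distance in kb downstream of the start of the span (solid red line; dashed line, end of the span); bars are peaks, drawn to scale except that the narrowest are widened to be visible. In each gene the Pol2S5p Ctrl row is filled over much of the body, while the other Pol2S5p rows hold 1 to 5 short peaks each.

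Across the 4 widened spans together, Pol2S5p peaks covered 8.03 kb in H1-10 OE, 9.86 kb in siE2F3, 11.8 kb in siCtrl and 724 kb in Ctrl. These lengths are 0.0205, 0.0109, 0.0115 and 1.68% of the covered length of their lists, in the same order. The H1-10 OE and Ctrl lists covered 39.1 and 43.1 Mb in all, and the siE2F3 and siCtrl lists 90.7 and 103 Mb. The siE2F3 and siCtrl lists, the longest in all, thus had little length in these genes. Of the 498 Ctrl peaks, 492 (98.8%, 95% Wilson interval 97.4 to 99.4%) overlapped no H1-10 OE peak by even 1 bp, 493 no siE2F3 peak and 491 no siCtrl peak. Over all Ctrl peaks the shares without overlap were 41.0, 25.4 and 22.5% for these lists. Those found in none of the other 3 Pol2S5p lists numbered 490 of the 498, against 19.5% of all Ctrl peaks. The choice of genes used these lists, so nothing is read from the contrast of these shares. Intervals here cover counting error only.

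PPP3CA was the most fully covered of the autosomal genes. Pol2S5p peaks covered 3.26 kb of its widened span in H1-10 OE, 4.55 kb in siE2F3, 4.31 kb in siCtrl and 284 kb in Ctrl. The H1-10 OE length was 1.15% of the Ctrl length. Ctrl held 122 peaks there with a median gap of 282 bp between neighbours and no gap above 1.31 kb, so the Ctrl signal ran nearly unbroken over the gene.

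The start of PPP3CA was occupied in all 4 Pol2S5p lists. The peak at the start was chr4:102266775-102269567 in H1-10 OE, with a fold enrichment of 16.6 over the background of the authors' caller. In siE2F3 it was chr4:102266421-102269774 with a fold of 9.39, and in siCtrl chr4:102266513-102269808 with a fold of 21.2. In Ctrl the peak chr4:102262286-102271436 spanned 9.15 kb with a fold of 27.6, which was above 95.8% of the folds in its list. RefSeq on GRCh38 places PPP3CA-DT, a long noncoding RNA gene, at -1.357 to -0.251 kb from the start of PPP3CA. The summits lay at -0.286 kb in H1-10 OE and -0.396 kb in Ctrl, and at 0.004 kb in siE2F3 and 0.119 kb in siCtrl. The H1-10 OE and Ctrl folds were thus read upstream of PPP3CA and cannot be assigned to either gene alone. Within 1 kb of the start on either side, a window of 2000 bp, 1939 bp were covered in H1-10 OE and all 2000 in siE2F3, siCtrl and Ctrl. Folds and significance values are the authors' and rank peaks within a list; they are not compared between lists.

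The body of PPP3CA set Ctrl apart. From 1 kb past the start to the end of the span, 1.32 kb (0.408%) was covered in H1-10 OE, 1.21 kb (0.374%) in siE2F3, 1.43 kb (0.441%) in siCtrl and 275 kb (85.3%) in Ctrl. In H1-10 OE and siE2F3 this was the tail of the occupancy at the start, which reached at most 2.465 kb into the gene. The siCtrl list had a further 310-bp peak at 9.32 to 9.63 kb. The longest Ctrl peak, chr4:102156316-102171213, spanned 14.9 kb, from 97.4 to 112 kb into the gene, with a fold of 9.54. Cut into 10 parts of equal length, the gene was covered in Ctrl over 97.6% in the first part and 67.8% in the last.

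GUCY1A2 held a single Pol2S5p peak, at its start, in each of the other lists. Covered length in the widened span was 1.05 kb in H1-10 OE, 1.21 kb in siE2F3, 1.78 kb in siCtrl and 165 kb in Ctrl. The peaks at the start were chr11:106888402-106889448 in H1-10 OE (fold 6.39), chr11:106888242-106889450 in siE2F3 (fold 9.29) and chr11:106888123-106889905 in siCtrl (fold 8.63). In Ctrl the peak at the start was chr11:106883245-106889646, 6.40 kb wide with a fold of 10.0, and it was the widest and the most significant of the 178 Ctrl peaks of this gene. These 4 peaks overlap one another, so the start of GUCY1A2 was occupied in every Pol2S5p list. Of the 2000 bp around the start, 1047 bp were covered in H1-10 OE, 1209 in siE2F3, 1734 in siCtrl and 1475 in Ctrl. The promoter lengths of the 4 lists were thus far closer than the body lengths.

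Beyond 1 kb from the start, the body of GUCY1A2 held 0 kb in H1-10 OE, 0 kb in siE2F3, 0.0490 kb in siCtrl and 159 kb in Ctrl (46.3% of the body). Short peaks made up the signal, and the median width of a Ctrl peak was 661.5 bp. Coverage thinned along the gene. Of the 10 equal parts, the first was covered over 80.0% and the second over 83.4%, the fifth over 37.8% and the last over 10.5%. The longest gap, 17.6 kb, began 306 kb from the start.

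AFF3, the longest of the genes, was unlike the rest in that no Pol2S5p list had a peak at the start of its span, and 0 of the 2000 bp around it were covered in H1-10 OE, siE2F3, siCtrl and Ctrl alike. The first Ctrl peak began 35.4 kb downstream, at chr2:100720587-100723666, with a fold of 6.09. H1-10 OE had a peak at nearly the same place, chr2:100720811-100721867 (fold 11.2), as had siE2F3 at chr2:100720804-100722229 (fold 5.55) and siCtrl at chr2:100720765-100722373 (fold 16.5). These peaks lay between 35.4 and 38.5 kb from the start of the span, and the second RefSeq start of AFF3 shown above lies 37.0 kb from the first. The distance comes from GRCh38 and the peaks from hg19, so the match is approximate. Of the 2 starts of AFF3, the polymerase was thus found near the inner and not at the outer in all 4 lists.

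Covered length in the widened AFF3 span was 2.18 kb in H1-10 OE, 1.43 kb in siE2F3, 1.93 kb in siCtrl and 181 kb in Ctrl, of which H1-10 OE had 1.20%. With no promoter coverage, nearly all of this lay in the body, where Ctrl covered 179 kb (30.1%). Ctrl held 197 peaks, of which 1 was the peak near the inner start, and the rest lay downstream of it. Of the 10 equal parts of the gene, the first was covered in Ctrl over 12.5%, the second over 69.1%, the third over 68.8%, the sixth over 30.2% and the last over 2.68%. Like GUCY1A2, AFF3 was covered more densely in the part that follows the occupied start than near its end, and the widest Ctrl peak, 7.81 kb at chr2:100585529-100593337, lay 166 to 174 kb into the gene.

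In AFF3 a few short peaks in the body were found outside Ctrl too. H1-10 OE had chr2:100621379-100622050, 137 kb from the start with a fold of 17.9, and chr2:100681428-100681875, 77.2 kb from the start with a fold of 5.38. The siCtrl list had a 318-bp peak inside the first of these (fold 3.86) and siE2F3 had none. Both places also carried E2F3 peaks in H1-10 OE and in Ctrl, as described below.

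IQSEC2, on chromosome X, was covered by 1 unbroken Ctrl peak. Covered length in the widened span was 1.54 kb in H1-10 OE, 2.67 kb in siE2F3, 3.78 kb in siCtrl and 93.6 kb in Ctrl, of which H1-10 OE had 1.65%. The Ctrl peak, chrX:53251580-53350658, was the longest of its list at 99.1 kb and ran from 136 bp upstream of the start to 10.5 kb past the end of the span. Its fold of 51.2 was read at its summit, 95.7 kb from the start and past the end of the span, so it does not give the strength of the signal along the body of IQSEC2. RefSeq on GRCh38 places the start of KDM5C, a histone demethylase gene on the same strand, 96.1 kb downstream of the start of IQSEC2. Near that distance H1-10 OE, siE2F3 and siCtrl also had a peak, with folds of 16.5, 17.8 and 29.2.

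Outside Ctrl, IQSEC2 held short peaks at its start, near 40 kb and near its end. At the start, H1-10 OE had chrX:53350240-53350712 (fold 6.75), siE2F3 chrX:53350275-53350816 (fold 7.51) and siCtrl chrX:53350254-53350891 (fold 6.46). Near the second RefSeq start, 39.8 kb into the gene on GRCh38, H1-10 OE had a peak at 39.4 to 40.0 kb, siE2F3 at 39.3 to 40.0 kb and siCtrl at 39.1 to 40.5 kb, with folds of 5.38, 7.03 and 8.59. Of the 2000 bp around the first start, 473 bp were covered in H1-10 OE, 542 in siE2F3, 638 in siCtrl and 1136 in Ctrl. Both starts of IQSEC2 were thus occupied in these 3 lists, and the body between them was not, apart from a 487-bp siCtrl peak at 36.3 kb. Over the whole body, 0.670 kb (0.766%) was covered in H1-10 OE, 1.999 kb (2.29%) in siE2F3, 2.91 kb (3.33%) in siCtrl and 87.5 kb in Ctrl, which is all of it.

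**Figure D2:**
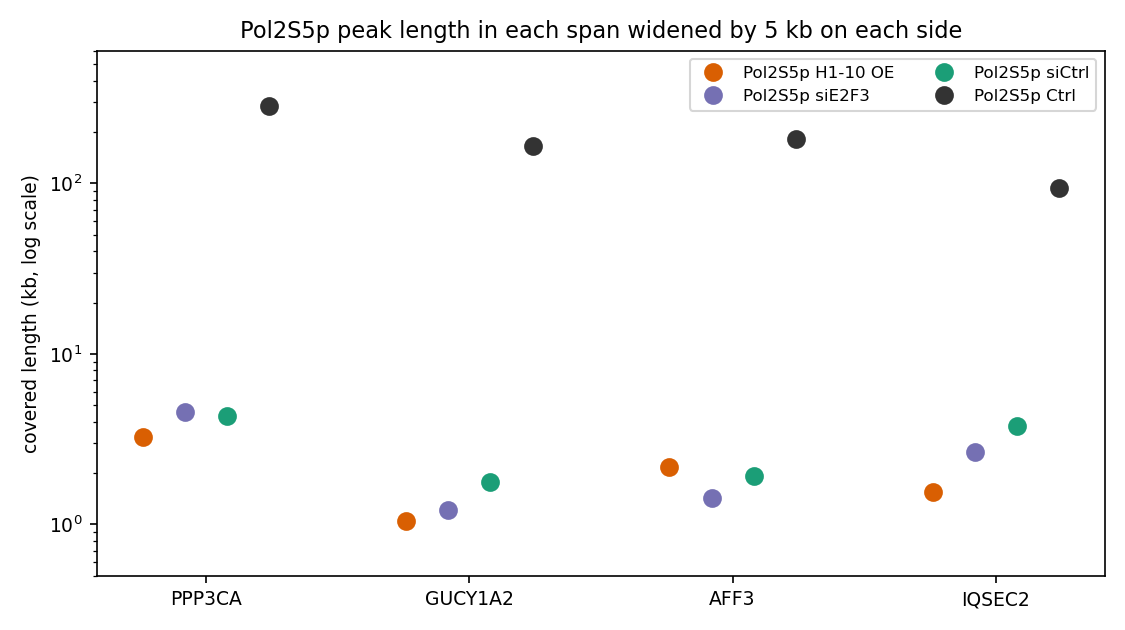
Covered length of Pol2S5p peaks in each widened span, in kb on a log axis, 1 point per list and gene. In all 4 genes H1-10 OE, siE2F3 and siCtrl lie between 1.05 and 4.55 kb and Ctrl between 93.6 and 284 kb.

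The siE2F3 and siCtrl libraries, the pair that asks what targeting E2F3 did to Pol2S5p, both had short lengths in these genes. In siCtrl only 1.78 to 4.31 kb were covered per gene, so a loss over the bodies could hardly be seen. The whole lists covered 90.7 Mb in siE2F3 and 103 Mb in siCtrl. The siE2F3 length was 106% of the siCtrl length in PPP3CA, 67.8% in GUCY1A2, 74.0% in AFF3 and 70.6% in IQSEC2. None of the 4 differences was above 1.11 kb in size. In PPP3CA the direction rested on the flanks, and without the widening siE2F3 minus siCtrl was -0.218 kb. The start peaks of PPP3CA, GUCY1A2 and IQSEC2 and the peak near the inner start of AFF3 were present in both libraries. Other short peaks were in 1 of the pair only. Those of siE2F3 lay at 40.5 kb (fold 5.4035) and 81.6 kb (fold 4.44) in IQSEC2 and at 325.2 and 327.4 kb in PPP3CA, past the end of its span. Those of siCtrl lay at 137 kb in AFF3, at 36.3 and 56.7 kb in IQSEC2, and at 9.32 and 326.0 kb in PPP3CA. The siE2F3 peak of IQSEC2 at 40.5 kb began at 40.485 kb, and a siCtrl peak ended beside it at 40.482 kb. It is therefore not a place without Pol2S5p nearby in siCtrl.

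**Figure D3:**
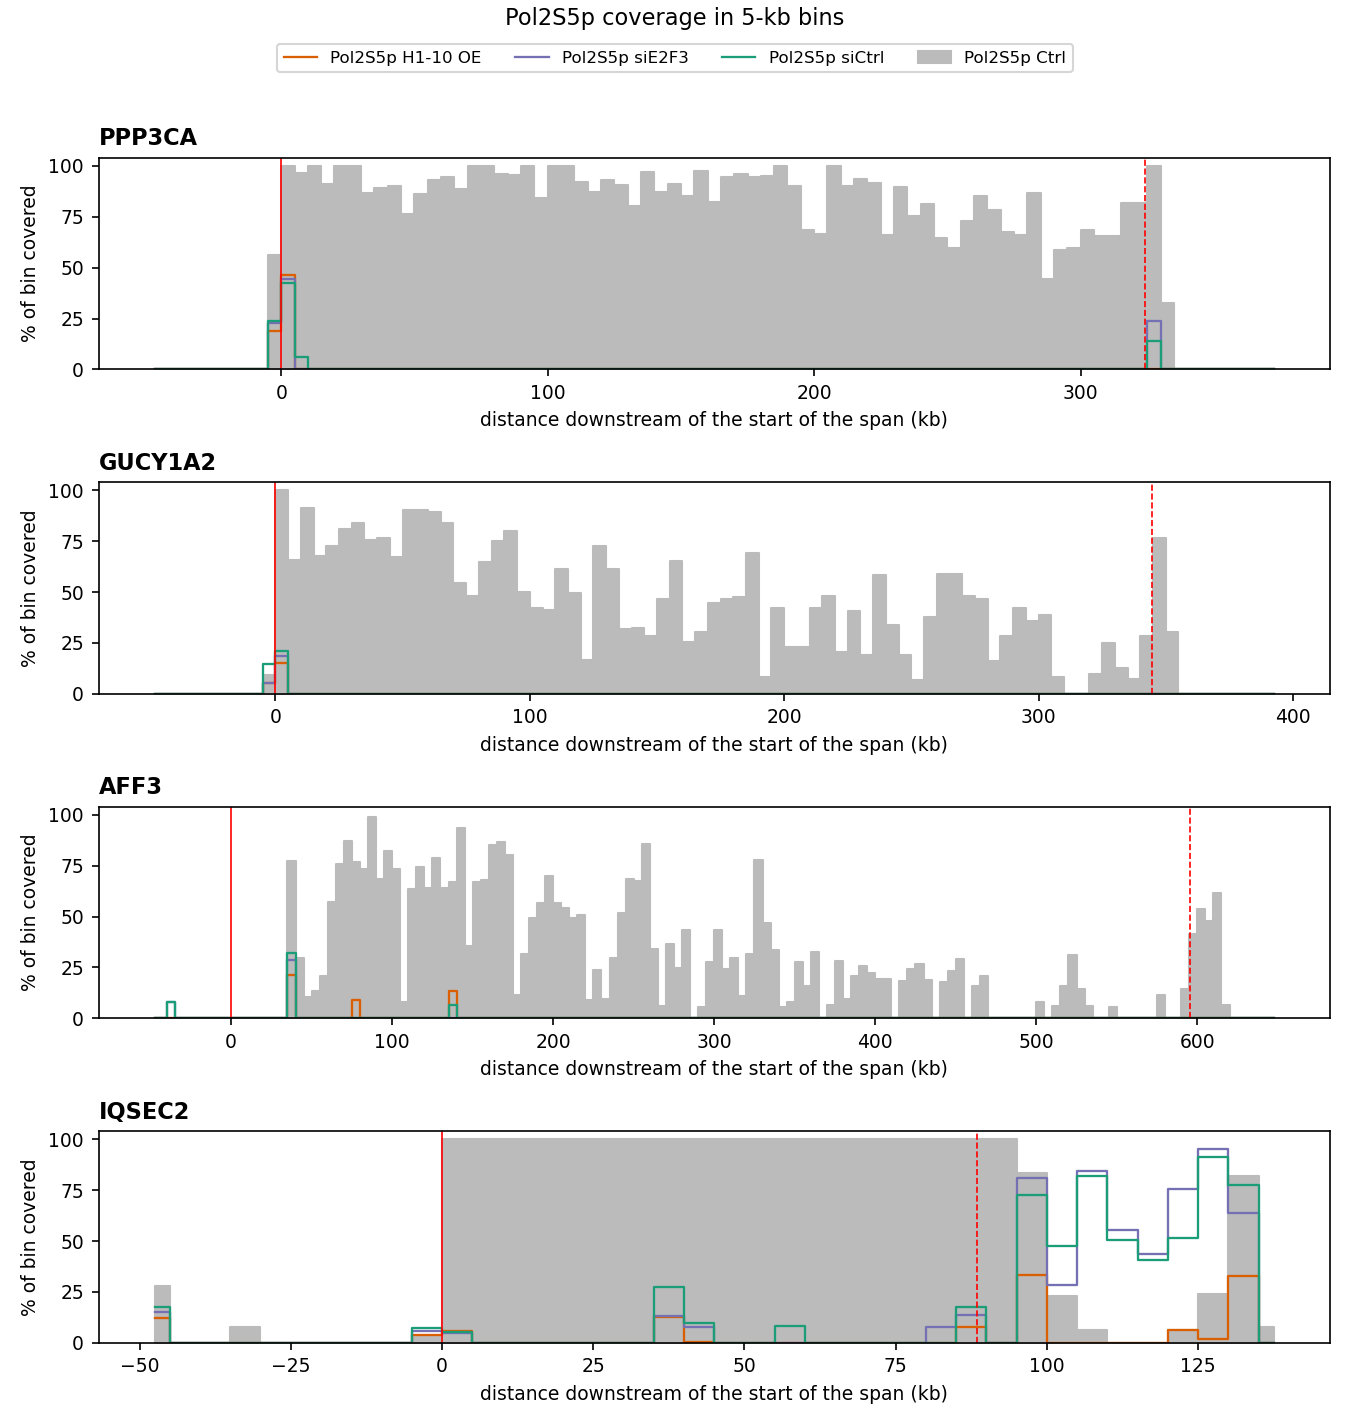
Share of each 5-kb bin covered by Pol2S5p peaks, in percent, from 50 kb before the start to about 50 kb past the end of each gene; grey, Ctrl; lines, H1-10 OE, siE2F3 and siCtrl; solid and dashed red lines mark the start and end of the span. Ctrl coverage begins at or near the start, or in AFF3 35.4 kb inside, thins along GUCY1A2 and AFF3, and goes on past the end of each span.

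The Ctrl signal did not stop at the ends of the spans. RefSeq on GRCh38 gives PPP3CA and GUCY1A2 nearly the length of their spans, but AFF3 597 kb and IQSEC2 95.5 kb, so for IQSEC2 the stretch past the span is still part of the gene in that annotation, and for AFF3 some of it may be. In the first 5 kb past the end of the span, PPP3CA was covered over 0% in H1-10 OE, 24.0% in siE2F3, 14.02% in siCtrl and 100% in Ctrl. For GUCY1A2 the Ctrl share was 86.5% and for AFF3 47.4%, with 0% in each of the other 3 lists. For IQSEC2 it was 8.02% in H1-10 OE, 2.62% in siE2F3, 4.70% in siCtrl and 100% in Ctrl. In GUCY1A2 and AFF3 the Ctrl share of these 5 kb was above that of the last of the 10 parts of the gene, 10.5 and 2.68%. Those parts are much longer windows, from 310 to 344 kb in GUCY1A2 and from 536 to 595 kb in AFF3. That of GUCY1A2 also holds much of its longest gap. Coverage of an equal length just before the end was not compared.

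PPP3CA and GUCY1A2 each had a marked Ctrl peak there. In PPP3CA the most significant Ctrl peak away from the start was chr4:101936987-101945785, which straddled the end of the span with a fold of 7.23. The siE2F3 and siCtrl lists had 3 and 2 short peaks past this end, with folds of at most 3.55 and 3.72, and H1-10 OE had none. In GUCY1A2 a Ctrl peak of 2.96 kb with a fold of 7.40 began 345.6 kb from the start, just past the end. Both folds were above the median fold of the Ctrl peaks of their gene, 4.85 and 3.94. The PPP3CA peak was picked for its significance and the GUCY1A2 peak after its value was seen, so nothing is read from this.

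Around the genes the order of the lists varied from gene to gene. In a stretch of the gene's own length upstream of PPP3CA, covered length was 0.939 kb in H1-10 OE, 1.15 kb in siE2F3, 1.18 kb in siCtrl and 2.81 kb in Ctrl, and downstream of it 0, 1.20, 0.701 and 7.60 kb in the same order. The next Ctrl peak lay 605 kb upstream of the start of PPP3CA and, past the run over the end, 529 kb downstream, so PPP3CA stood alone. Upstream of GUCY1A2 the lengths were 0.587 kb in H1-10 OE, 0.628 kb in siE2F3, 2.40 kb in siCtrl and 6.94 kb in Ctrl, and downstream of it 0, 0, 0 and 5.90 kb. The upstream lengths of PPP3CA were in each list the outer edge of the peak at its start. Its downstream Ctrl length was the outer part of the peak over its end. For PPP3CA these lengths thus add nothing to the values of the gene. Around GUCY1A2 Ctrl covered the most, as in the gene itself. Upstream of AFF3 the lengths were 4.31 kb in H1-10 OE, 17.1 kb in siE2F3, 18.9 kb in siCtrl and 4.43 kb in Ctrl, and downstream of it 13.5, 43.2, 40.5 and 29.1 kb in the same order. For IQSEC2 they were 9.45, 30.8, 30.8 and 5.41 kb upstream, and 4.12, 26.5, 27.2 and 18.2 kb downstream. Near AFF3 and IQSEC2, siE2F3 and siCtrl thus covered more raw length than Ctrl did, which was the reverse of the genes themselves. Those 2 lists were also longer in all, with 90.7 and 103 Mb against 43.1 Mb in Ctrl. The flank lengths are not scaled for list length, so no local difference is read from their order. Over whole chromosomes, H1-10 OE and Ctrl covered 1.20 and 1.61 Mb of chromosome 4, 2.12 and 2.76 Mb of chromosome 11, 2.29 and 2.59 Mb of chromosome 2, and 1.28 and 1.17 Mb of chromosome X.

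The genome was cut into tiles of 100 kb to see how many places behaved alike. Of 395 tiles with at least 20 kb of Pol2S5p in Ctrl, 45 (11.4%) were covered at least 10-fold less in H1-10 OE, while in the other direction 6 of 239 tiles (2.51%) were. Of the 17 tiles that touch the 4 genes, 12 passed the minimum in Ctrl and all 12 were among the 45, with 4 in PPP3CA, 3 in GUCY1A2, 3 in AFF3 and 2 in IQSEC2. The genes were chosen for this difference, so nothing is read from that count. The other 33 such tiles lay outside them, 3 of them on chromosome X, so tiles covered at least 10-fold less in H1-10 OE than in Ctrl were not confined to these 4 genes. The siE2F3 and siCtrl lists had no part in this call. A called tile that touches IQSEC2 had 27434 bp in siE2F3 and 27868 bp in siCtrl, against 56116 bp in Ctrl. The whole IQSEC2 span held 2.25 kb in siE2F3 and 3.18 kb in siCtrl, so most of their length in this tile lay past the end of the span. Long peaks were compared with all 3 other lists. The 4 genes held 5 Ctrl peaks of at least 10 kb, 4 of them in PPP3CA and 1 in IQSEC2, and each was covered over less than 10% of its length in H1-10 OE, in siE2F3 and in siCtrl. Of all 245 Ctrl peaks of that length, 21.2, 15.1 and 14.3% were.

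**Figure D4:**
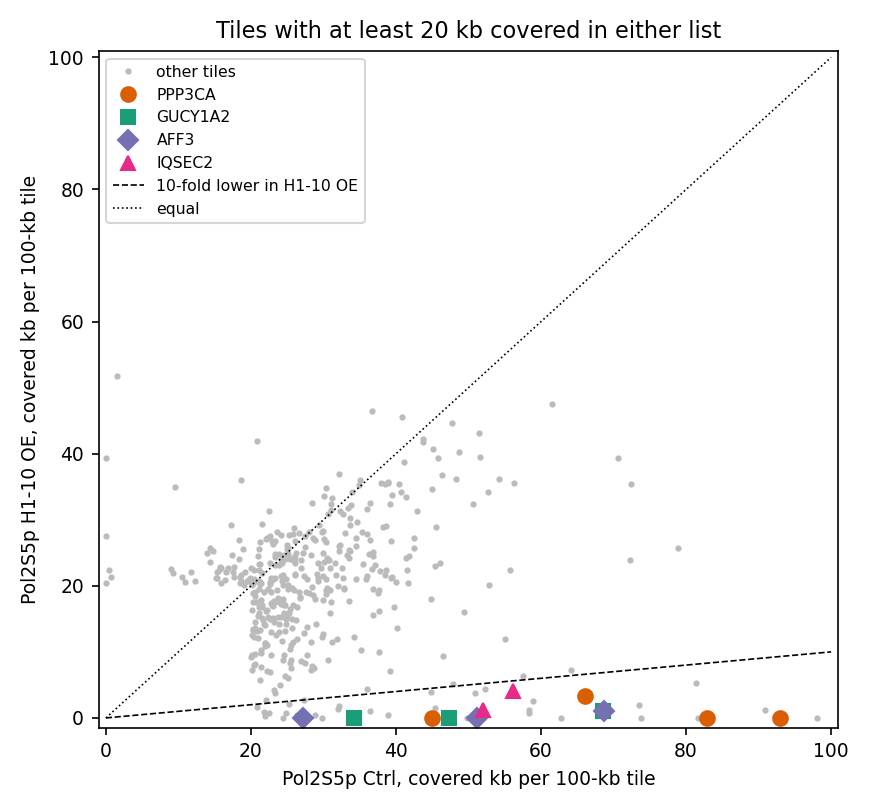
Pol2S5p covered length per 100-kb tile in H1-10 OE (vertical) against Ctrl (horizontal), both in kb, for tiles with at least 20 kb in either list; coloured symbols are tiles that touch a member, the dashed line marks 10-fold less in H1-10 OE and the dotted line equal length. The 12 member tiles lie below the dashed line together with 33 grey tiles.

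Ctrl peaks of GUCY1A2 and AFF3 ranked low within their own list, and those of PPP3CA near its middle. The median fold of the Ctrl peaks was 4.85 in PPP3CA, 3.94 in GUCY1A2 and 4.13 in AFF3, against 5.17 over the whole Ctrl list. Of the 122, 178 and 197 peaks, 53, 25 and 35 were above that list median. By the authors' q value, a p-value adjusted over the list, 61.6% of all Ctrl peaks had a -log10 q of 5 or more. In PPP3CA 80 of 122 peaks (65.6%) did, a share near that of the list, in GUCY1A2 46 of 178 (25.8%), in AFF3 67 of 197 (34.0%), and in IQSEC2 its 1 peak. The strength of the IQSEC2 signal along its body cannot be read from that peak. A body without peaks in another list may still carry some Pol2S5p under the threshold of the authors' caller.

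**Figure D5:**
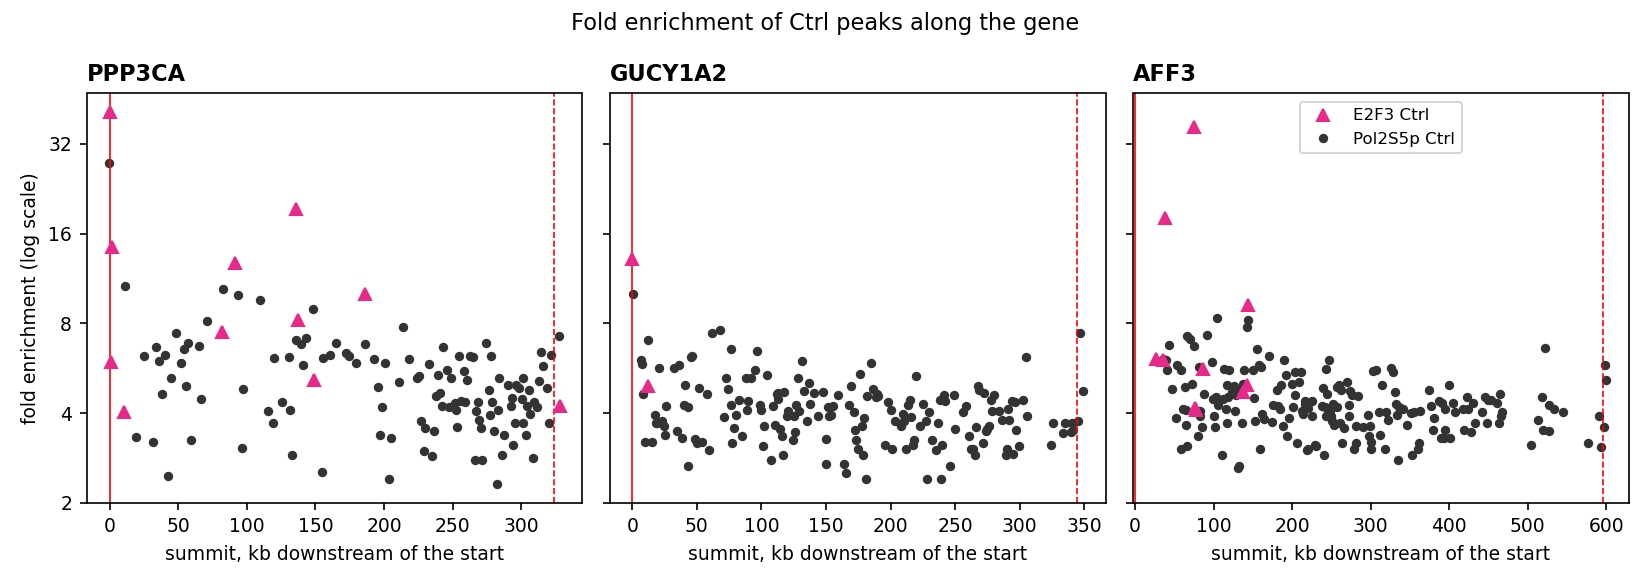
Fold enrichment (log axis) of each Ctrl peak by the distance of its summit from the start of the span, in kb, for PPP3CA, GUCY1A2 and AFF3; dots, Pol2S5p; triangles, E2F3; red lines, start (solid) and end (dashed). The highest Pol2S5p fold of PPP3CA (27.6, summit at -0.396 kb) and of GUCY1A2 (10.0) belongs to the peak over the start. In AFF3 no Pol2S5p fold is above 8.35.

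The fold of Ctrl peaks also varied along the genes. In PPP3CA the median fold by part was 4.78 in the first part, 6.71 in the third and 4.42 in the last. In GUCY1A2 it was 4.08 in the first and 3.498 in the last part, and in AFF3 5.59 in the first and 3.53 in the last. The number of Ctrl summits per part differed between the genes. AFF3 had 30 in its second part and 4 in its last. GUCY1A2 had 17 in its second, 18 in its ninth and 7 in its last part, which holds much of its longest gap. PPP3CA went the other way, with 4 summits in its first part and 22 in its last, while the covered share was 97.6 and 67.8%. Summit number thus did not follow coverage there.

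E2F3, mapped in H1-10 OE and Ctrl, was found at 7 places in these genes in H1-10 OE and at 28 in Ctrl. PPP3CA held 3 peaks in H1-10 OE and 11 in Ctrl, GUCY1A2 0 and 2, AFF3 4 and 10, and IQSEC2 0 and 5. The H1-10 OE list was the shorter, with 4296 peaks against 22988. The 7 and 28 peaks were 0.163 and 0.122% of their lists, so the lower count in H1-10 OE is not a lower share. At the starts, H1-10 OE had no E2F3 peak in any of the genes. Ctrl had chr4:102268265-102269447 at PPP3CA (fold 40.9), chr11:106888253-106889429 at GUCY1A2 (fold 13.1), chrX:53350258-53350793 at IQSEC2 (fold 7.29) and chr2:100720918-100721816 near the inner start of AFF3 (fold 18.0). Of the 28 Ctrl peaks, 25 overlapped no H1-10 OE peak, beside 97.4% of all E2F3 Ctrl peaks.

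The E2F3 peaks that both conditions shared lay inside genes. In PPP3CA, chr4:102132280-102132601 in H1-10 OE (fold 5.70) lay within chr4:102132052-102133080 in Ctrl (fold 19.3), 136 kb from the start. In AFF3, chr2:100621396-100622049 in H1-10 OE had a fold of 14.9, above 94.3% of the folds in its list, and Ctrl had a 404-bp peak inside it with a fold of 4.72. The AFF3 peak at 77.1 kb in H1-10 OE (fold 4.43) overlapped a Ctrl peak with a fold of 4.10. The other 4 of the 7 H1-10 OE peaks met no Ctrl peak, against 85.9% of all E2F3 peaks of that list. The strongest E2F3 peak of AFF3 in Ctrl, chr2:100684104-100684911 with a fold of 36.5, had no counterpart in H1-10 OE.

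Set against polymerase, 9 of the 28 E2F3 peaks of Ctrl overlapped a Pol2S5p peak of H1-10 OE, 8 one of siE2F3, 9 one of siCtrl and 27 one of Ctrl. Over the whole E2F3 list of Ctrl these shares were 64.6, 67.8, 70.6 and 68.0%. The genes were chosen for Pol2S5p that was found in Ctrl, so this order follows from the choice. Of the 7 E2F3 peaks of H1-10 OE, 2 overlapped Pol2S5p of H1-10 OE and 7 overlapped Pol2S5p of Ctrl, beside 30.2 and 13.0% of that list. The overlap of these 7 with Pol2S5p of Ctrl follows from the choice of the genes as well. The 2 that overlapped Pol2S5p of H1-10 OE were the AFF3 peaks at 77.1 and 137 kb. Of the 3 Pol2S5p peaks of H1-10 OE in AFF3, these 2 in the body coincided with E2F3 of both conditions, and the one near the inner start with E2F3 of Ctrl.

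H3K27me3 peaks covered 0.243 kb of the body of IQSEC2 in H1-10 OE, next to its start, and were otherwise not found over these bodies. PPP3CA, GUCY1A2 and AFF3 held 0 peaks of the mark in H1-10 OE and 0 in Ctrl. The lists were unlike in size, with 18395 peaks over 10.1 Mb in H1-10 OE and 2540 over 1.52 Mb in Ctrl. Absence from the short Ctrl list therefore says little. IQSEC2 held 3 in H1-10 OE and 0 in Ctrl. The 3 lay about its start, at chrX:53349280-53350260, chrX:53350962-53351404 and chrX:53352036-53352334, with folds of 4.71, 3.87 and 4.18 and -log10 q of 3.91, 2.85 and 3.24. The first met the Pol2S5p peak of H1-10 OE at the start of IQSEC2 over 21 bp and the E2F3 peak of Ctrl there over 3 bp. Chromosome X as a whole held 1319 H3K27me3 peaks in H1-10 OE and 0 in Ctrl, and of all H3K27me3 peaks of H1-10 OE 97.2% met no Ctrl peak, so the 3 are not set apart from the rest of that list. The part in this difference of whatever left the Ctrl list without peaks on chromosome X was not tested. Over PPP3CA, GUCY1A2 and AFF3 the lower Pol2S5p coverage in H1-10 OE thus stood beside no peak of this mark, in lists whose median peak was 433 bp wide in H1-10 OE and 460.5 bp in Ctrl.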

How the data were processed

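Peak lists of 8 ChIP-seq libraries were used, 1 library per group, grouped by the sample labels. The submitters' processing notes name FastQC, fastp, Bowtie and the hg19 build. Their versions are not stated there. Which caller made the peaks, at which threshold and against which input, is not given in the sources used here. Each list is deposited under 1 sample, and no pooling is stated. The deposited columns are a peak score, a fold enrichment (a ratio to the caller's background), and -log10 p and -log10 q of the authors' caller. The lowest deposited -log10 q was 1.30 in the H1-10 OE and Ctrl lists of Pol2S5p. Peak names carry one folder label for the H3K27me3 lists and the Pol2S5p lists of H1-10 OE and Ctrl, and another for the E2F3, siE2F3 and siCtrl lists; siE2F3 and siCtrl are set beside H1-10 OE and Ctrl across that label, and whether processing differed was not tested.

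Covered length is the union of peaks, clipped to the span widened by 5 kb. The promoter is 1 kb on each side of the start of the span, and the body the rest of the span. Overlap means at least 1 bp. The members, lists and settings were chosen with earlier results of these data known. All 4 members are named; of their peaks, those named are the widest, the one nearest the start and the most significant in the body of each list, and others at the places the text compares, chosen after their values were seen. Strand came from RefSeq promoters on GRCh38.p14 for 3 members, and for PPP3CA from general knowledge. An hg19 annotation was not used here, so related genes and prostate marker genes were not examined. Shares carry 95% Wilson intervals where printed. With 1 library per group no test was run. The coverage code was checked on simulated lists. Python 3.11.15 was used with numpy 2.4.6 and pandas 2.3.3, intervals came from scipy 1.17.1, and figures from matplotlib 3.10.9.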

Additional observations from a re-analysis of the deposited data

How the results depend on the processing

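Values below are H1-10 OE minus Ctrl, or siE2F3 minus siCtrl, in kb, and a value that stayed within 1.5 times of the reported one counts as unmoved. The lower Pol2S5p length than in Ctrl kept its direction in all 4 genes under all 6 settings tried and moved under 1 of them. Of the 6 settings, 1 put siCtrl in place of H1-10 OE. The genes were chosen on the contrast of H1-10 OE and Ctrl, so the kept direction supports nothing. With -log10 q of at least 5 it was -75.4 kb in GUCY1A2 and -103 kb in AFF3, where many Ctrl peaks are weak. At that threshold 188 of 194 Ctrl peaks had no overlap in H1-10 OE, in place of 492 of 498. The count thus fell with the number of Ctrl peaks. The share over all Ctrl peaks at that threshold was not computed. That threshold also left 0 E2F3 peaks of H1-10 OE in PPP3CA and 1 in AFF3, 1 E2F3 peak of Ctrl in GUCY1A2 and 6 in AFF3, and 0 H3K27me3 peaks in IQSEC2. Body lengths moved under neither promoter width. Promoter differences were small and moved with the window: with 2 kb on each side they were -1.21 kb in PPP3CA, -1.43 kb in GUCY1A2 and -1.66 kb in IQSEC2, and with 500 bp they were 0, -0.198 and -0.163 kb. The siE2F3 difference in PPP3CA, 0.247 kb, was 0.0580 kb with -log10 q of at least 5, 0.437 kb with peaks within 1 kb merged, and -0.218 kb without the widening, where it reversed. In GUCY1A2 it was -0.119 kb without the widening, and in IQSEC2 -0.637 kb with peaks merged. No paired analysis was possible because each group has 1 library. Depth is unknown, so a body without peaks cannot be told from one under the threshold of the caller.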
